A study of Mus musculus with 24 samples.

Results

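The 10 genes described here encode proteins that make melanin or mark the retinal pigment epithelium, and they were taken by gene symbol from a table of 19018 genes. Of these 10 genes, 8 serve the pigment of all melanin-forming cells (Mitf, Tyr, Tyrp1, Dct, Pmel, Mlana, Oca2 and Slc45a2) and the other 2 encode membrane transport proteins of the retinal pigment epithelium (Best1 and Slc16a8). All 10 genes passed the filter on low values, which left 18233 genes. RNA was sequenced from whole eyes of male CBA/N mice, a pigmented strain, which had been moved at 10 weeks of age into one of the conditions below for 4 weeks. LW was a long, warm day (16 h of light and 8 h of dark at 27 °C) and SC was a short, cool day (8 h of light and 16 h of dark at 10 °C), so the effects of photoperiod and temperature cannot be told apart. Under each condition, 2 eyes were taken every 4 h, the first at 2 h and the last at 22 h after midnight, which gave 12 LW and 12 SC eyes. Of these 6 times, both conditions were lit at 10 and 14 h and both were dark at 2 and 22 h, while at 6 and 18 h LW alone was lit. An eye is named below by its condition, time and replicate number (SC 6 h eye 2). Whether different mice gave the 2 eyes of a group is not given in the sources used here, so the p-values cover the spread of these eyes, which may be technical.

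Melanin is made in melanosomes. In the eye these belong to pigment epithelia, such as the retinal pigment epithelium behind the photoreceptors. They also belong to the neural crest melanocytes of the iris, ciliary body and choroid. Tyrosinase starts the synthesis from tyrosine, Dct and Tyrp1 act on later intermediates of eumelanin, Pmel forms the fibrils on which melanin is laid down, and ion transporters set the pH inside the organelle. The retinal pigment epithelium also nourishes the photoreceptors, recycles their retinoids and carries lactate and chloride towards the choroid. In an extract of the whole eye the melanin genes report on all these pigment cells together, whereas Best1 and Slc16a8 are known chiefly from the retinal pigment epithelium.

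The totals of expected counts lay between 19543401 and 28859071 in LW eyes and between 20164885 and 28447184 in SC eyes. Levels are expected counts scaled to the mean library size, and a log2 difference is LW minus SC on log2(scaled expected count + 1), a scale on which genes of low counts differ by less than their fold. A gene was called at a limma p, adjusted over all 18233 genes (Benjamini-Hochberg), under 0.05. All 5 marker genes of the retinal pigment epithelium and all 5 of melanocytes were detected. The summed level of the epithelial markers lay between 30028 and 35403 in LW eyes and between 31991 and 35916 in SC eyes, and that of the melanocyte markers between 2935 and 3610 in LW eyes and between 2679 and 3529 in SC eyes. The largest mean levels in these sums were those of Rgr (15079) and Rlbp1 (9416), and of Kit (1557) and Ednrb (1154). Whether other cells of the eye add to these sums was not tested. SC 6 h eye 2 and SC 10 h eye 2 held Alb, the serum albumin gene of liver, at 1807 and 236 scaled counts, against at most 7.93 in the other 22 eyes. Of the 5 epithelial markers 1 was called, Rpe65, which was lower under LW (log2 difference -0.28, adjusted p = 8.5e-05). Of the 5 melanocyte markers 1 was called, Sox10, also lower (-0.15, adjusted p = 0.047). Markers of other tissues moved with the condition as well, with a call in 6 of 9 lists. Of 5 lens genes 4 were higher under LW (summed level 792736 to 911419 in LW eyes and 704617 to 870211 in SC eyes), of 5 rod genes 3 were higher (750271 to 933636 in LW eyes and 741466 to 870796 in SC eyes), and of 5 corneal epithelial genes 4 were lower (156974 to 234362 in LW eyes and 212029 to 252228 in SC eyes). Single genes were called among those of skeletal muscle (Myh4, log2 difference -0.35, adjusted p = 0.023), skin (Krt75, -0.59, adjusted p = 1.35e-04) and vessels (Acta2, 0.14, adjusted p = 0.010). No gene of these 6 lists was at 0 in all eyes, and the part that tissue composition has in the differences below was not tested.

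Mitf encodes the transcription factor of the pigment cell lineage, which is known to bind an E-box variant with the core CATGTG, called the M-box, before the start sites of the melanin enzymes. RefSeq promoter windows (GRCm38.p6) were at hand for 7 of the 10 genes. The 7 letters TCATGTG, searched on both strands of the 250 bases before each start, were found in the windows of Tyrp1, Tyr and Dct, the 3 genes of the melanin enzymes, and are shown because Tyrp1 and Dct, which went opposite ways between the conditions, both hold the motif. The motif is in capitals, each line reads 5′ to 3′ along the gene's strand, and the capitals of the last line are the reverse complement of the motif.
Tyrp1, chr4:80834155-80834183, plus strand: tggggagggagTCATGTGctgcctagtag
Tyr, chr7:87493517-87493545, minus strand: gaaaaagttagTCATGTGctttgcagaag
Dct, chr14:118052380-118052408, minus strand: tgcacttagggTCATGTGctaacaaagag
Dct, chr14:118052461-118052489, minus strand: cttggctgggaCACATGAgcccaataaag
The first base of the motif lies 22 bases before the RefSeq start of Tyr, and 151 and 232 before that of Dct. For Tyrp1 it lies 47 bases before the transcript start that the promoter window is built on (80834213), which is 90 bases inside the RefSeq span of the gene, so the stretch shown is within that span and its motif begins 43 bases after the span does. The Tyrp1 stretch overlaps an exon of 1 of 4 annotated Tyrp1 transcripts (GENCODE M21), and the other stretches overlap none of their own gene. The motif was not found in the 3 windows of Mitf or in those of Oca2, Best1 and Slc16a8, and among all 32851 windows 3.25% held it.

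Per kilobase of the longest principal transcript (GENCODE M21), the levels over all 24 eyes spanned a wide range. Dct, the dopachrome tautomerase, stood highest, at 8171 ± 495 scaled counts per kilobase (SD, n = 24). Pmel and Tyrp1 came next at 3554 ± 203 and 3369 ± 317 scaled counts per kilobase, and their ranges over the eyes overlapped. Mlana, which encodes a small melanosomal membrane protein, followed at 1671 ± 87.7 and Slc16a8 at 879 ± 60.4 scaled counts per kilobase. The genes Tyr, Oca2 and Slc45a2 lay at 246 ± 25.2, 241 ± 19.9 and 199 ± 36.3 scaled counts per kilobase, and each overlapped its neighbour in this order. Mitf, at 109 ± 13.1, and Best1, at 15.3 ± 4.11 scaled counts per kilobase, were the lowest. The order rests on the transcript chosen for each gene.

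Over the 6 times, Tyrp1 was higher and Dct was lower under LW, and the other 8 genes did not pass the test. Of the 10 genes 2 were thus called, against 9.49% of all genes tested (4.84% higher and 4.65% lower under LW). An unadjusted p under 0.05 was reached by 8 of the 10, all but Tyr and Oca2, against 25.0% of all genes, with 4 of these 8 higher and 4 lower under LW. The median log2 difference was 0.01 over the 10 genes and 0.04 over the 8 melanin genes, beside 0.00 over all genes tested. In whole eyes, fewer cells of a type and less RNA per cell cannot be told apart.

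**Figure D1:**
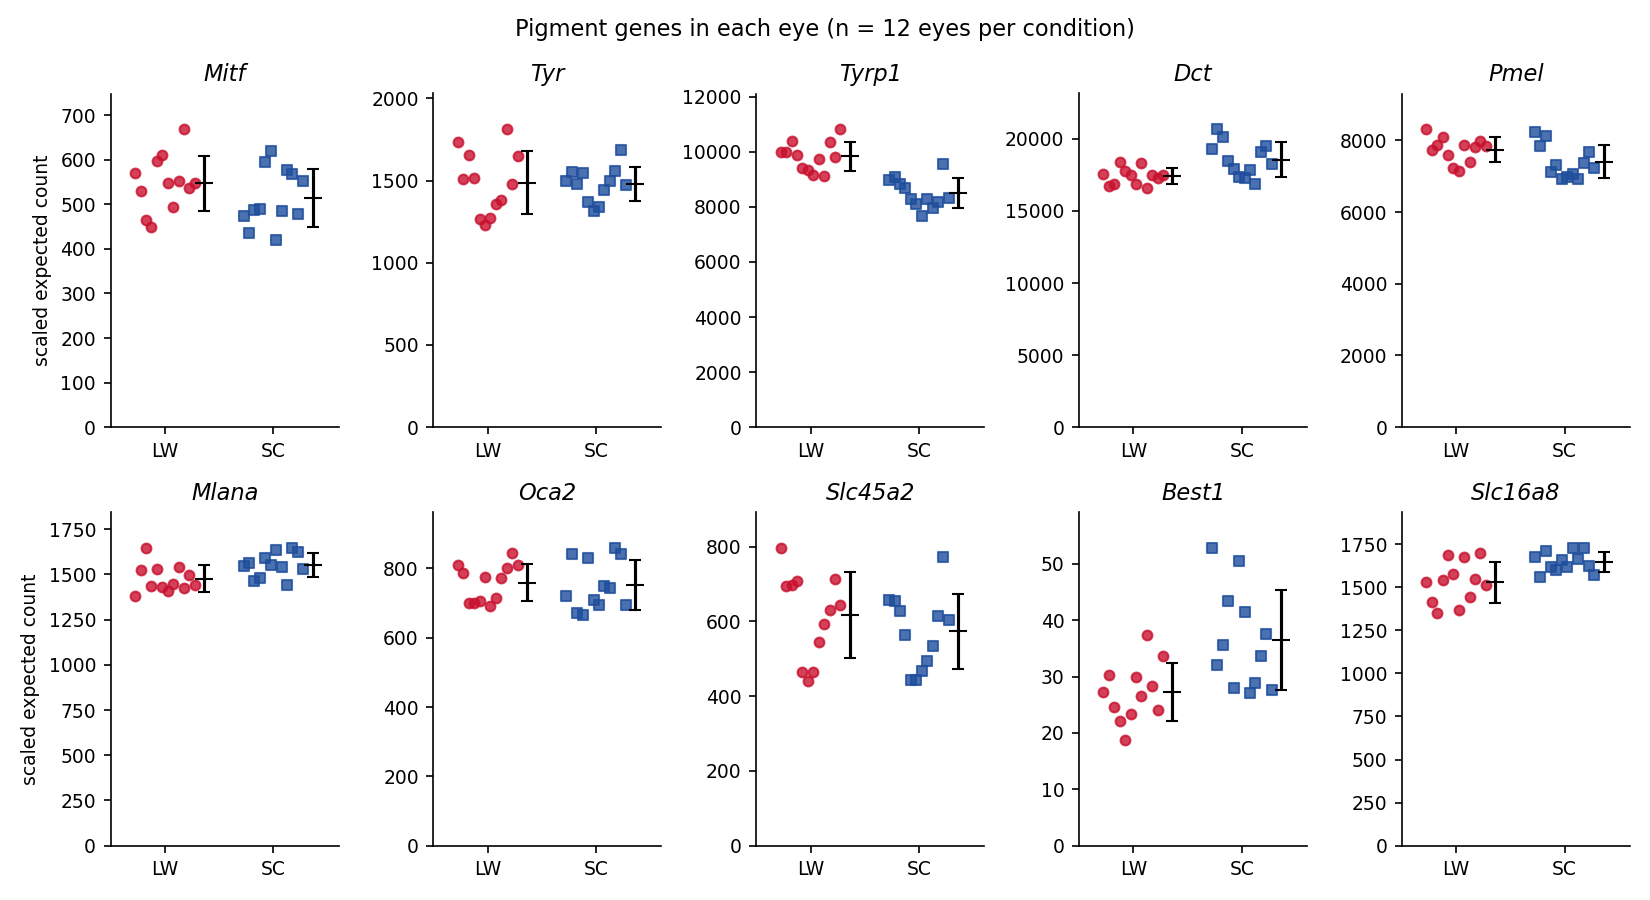
Scaled expected counts (vertical axis, from 0) of the 10 pigment genes in 12 LW eyes (red circles) and 12 SC eyes (blue squares), with points ordered by time of day from left to right within each condition and bars for mean ± SD. The Tyrp1 levels of LW eyes lie between 9116 and 10818, and 8 of them are above every SC eye.

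Tyrp1 (gene ID 22178; chromosome 4 of GRCm38.p6, 80834123 to 80851736) encodes tyrosinase-related protein 1, an enzyme and structural protein of eumelanin melanosomes. Its scaled count in LW eyes had a lowest value of 9116, a median of 9840 and a highest value of 10818, against 7660, 8309 and 9557 in SC eyes. In 8 LW eyes the level exceeded that of any SC eye, which 0.669% of all genes tested also reached. The means were 9834 ± 524 under LW and 8491 ± 542 under SC (SD, n = 12 each), which is 1.16-fold, or 0.21 on the log2 scale (standard error 0.03, adjusted p = 2.4e-05). In the order of the 6 times, LW eyes averaged 9985, 10135, 9383, 9443, 9744 and 10311, against 9031, 8754, 8188, 7971, 8058 and 8946 in SC eyes. The mean of LW eyes was thus the higher one at all 6 times, whether the lights were on or off. Tyrp1 was called under all 39 alternative settings, with a log2 difference between 0.20 and 0.23.

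Dct (gene ID 13190; chromosome 14, 118012790 to 118052246), the enzyme that converts dopachrome to DHICA, went the other way. Its scaled count in LW eyes had a lowest value of 16614, a median of 17477 and a highest value of 18400, against 16880, 18385 and 20673 in SC eyes. The ranges overlapped, and 6 SC eyes were above every LW eye, as for 2.48% of all genes tested. The means were 17415 ± 576 under LW and 18570 ± 1191 under SC (SD, n = 12 each), a log2 difference of -0.09 (standard error 0.03, adjusted p = 0.027). In the order of the times, the log2 difference was -0.22, -0.13, 0.00, 0.00, -0.08 and -0.12, so it was smallest in size at the 2 times when both were lit, but its variation between times was not called (adjusted p = 0.45). The call was lost without the eyes of 2 h (log2 difference -0.07, adjusted p = 0.189) or those of 22 h (-0.09, adjusted p = 0.067). It was also lost when any one of 8 eyes was left out, namely SC 2 h eye 2, LW 2 h eye 2, SC 6 h eye 1, LW 6 h eye 1, SC 10 h eye 1, LW 10 h eye 2, LW 14 h eye 1 or SC 22 h eye 1, with log2 differences between -0.09 and -0.08 and adjusted p between 0.054 and 0.071.

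Because the counts of both genes come from the same library, their ratio does not depend on the scaling. The ratio of Tyrp1 to Dct expected counts in LW eyes had a lowest value of 0.530, a median of 0.558 and a highest value of 0.618, against 0.427, 0.463 and 0.490 in SC eyes. Every LW eye was above every SC eye. Of all genes tested, 0.0603% had a ratio to Dct separated in this way. The ratio of Tyrp1 to Tyr was also higher under LW at all 6 times, with a median of 6.61 in LW eyes and 5.73 in SC eyes, and 10 LW eyes were above every SC eye, as for 0.0878% of genes. These ratios were chosen with the levels known and are given without a test.

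**Figure D2:**
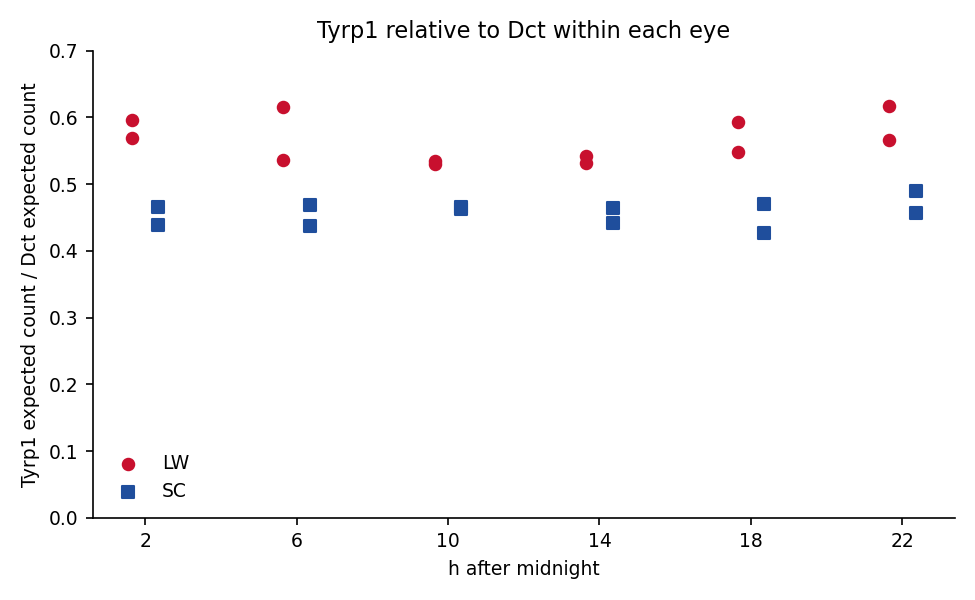
Ratio of the expected counts of Tyrp1 and Dct (vertical axis, no unit, from 0) in each eye against the time of collection in h after midnight, with LW eyes as red circles and SC eyes as blue squares. The lowest LW eye (0.530) lies above the highest SC eye (0.490).

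Tyr, which encodes tyrosinase, the rate-limiting enzyme of melanin synthesis, had almost the same mean under both conditions. Its scaled count was 1488 ± 194 in LW eyes and 1480 ± 104 in SC eyes (SD, n = 12 each), and the 95% interval of the log2 difference reached from -0.08 to 0.08. Pmel, the fibril protein, had 7737 ± 346 scaled counts in LW eyes and 7401 ± 458 in SC eyes (log2 difference 0.07, adjusted p = 0.11, and 0.08 with adjusted p = 0.038 without SC 6 h eye 1). Mlana, whose product binds the Pmel protein, had 1475 ± 74.0 in LW eyes and 1552 ± 67.2 in SC eyes (-0.07, adjusted p = 0.14). Neither was called, and their log2 differences had opposite signs. Mitf had 548 ± 61.4 scaled counts in LW eyes and 515 ± 64.9 in SC eyes (log2 difference 0.09, adjusted p = 0.18). Oca2, a melanosomal anion transport protein, had 759 ± 53.8 in LW eyes and 752 ± 72.3 in SC eyes (0.02, adjusted p = 0.84). Slc45a2, a transporter that helps to raise melanosomal pH, had 617 ± 116 in LW eyes and 573 ± 101 in SC eyes (0.10, adjusted p = 0.16). For these 6 genes, the 95% intervals of the log2 difference all lay between -0.14 and 0.19.

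**Figure D3:**
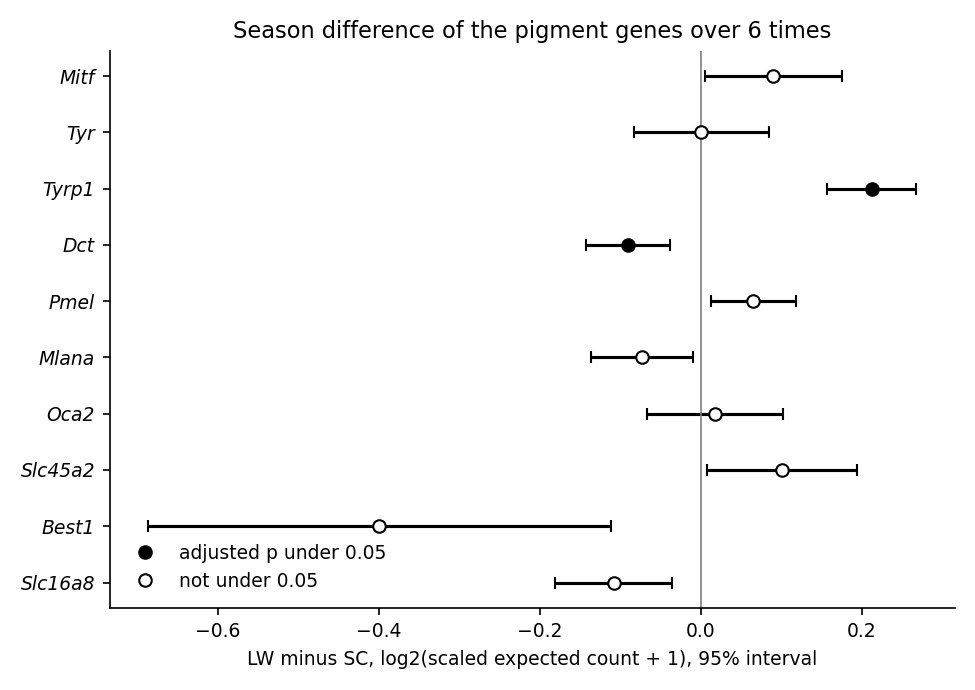
Log2 difference of LW minus SC over the 6 times (horizontal axis) for the 10 pigment genes, with 95% intervals from limma, where filled points are called and open points are not. Tyrp1 (0.21) and Dct (-0.09) are the called genes, and the interval of Best1 is the widest.

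Both genes of the pigment epithelium had lower means under LW, and neither was called. Best1 (gene ID 24115; chromosome 19, 9985172 to 10001633) encodes bestrophin 1, a calcium-activated chloride channel of the basolateral membrane. Its scaled count in LW eyes had a lowest value of 18.8, a median of 26.9 and a highest value of 37.4, against 27.1, 34.7 and 52.9 in SC eyes. The ranges overlapped, with 6 LW eyes below every SC eye, as for 2.73% of all genes tested. The means were 27.2 ± 5.16 under LW and 36.6 ± 8.88 under SC (SD, n = 12 each), a log2 difference of -0.40 (standard error 0.14, 95% interval -0.69 to -0.11, adjusted p = 0.071). Best1 was among the genes that the study picked from these same eyes, so its direction is not independent evidence. Its unscaled expected counts had a lowest SC time mean of 32.5 and a highest LW time mean of 31.5. After scaling, its LW mean at 18 h (32.9) was above its SC mean (31.2). With 19 to 53 expected counts per eye, counting error alone gives an SD of 0.26 on the log2 scale, beside 0.31 between eyes of a group. Over the times in order, the log2 difference was -0.51, -0.73, -0.82, -0.24, 0.06 and -0.17. Best1 passed the test under 2 alternatives, when SC 2 h eye 2 was left out (-0.46, adjusted p = 0.049) and when SC 10 h eye 1 was left out (-0.47, adjusted p = 0.039), and under no other.

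Slc16a8 (gene ID 57274; chromosome 15, 79251016 to 79255562) encodes the monocarboxylate transporter MCT3, which exports lactate across the same membrane. Its scaled count in LW eyes had a lowest value of 1353, a median of 1537 and a highest value of 1701, against 1556, 1640 and 1729 in SC eyes. Of the LW eyes 8 were below every SC eye, as for 0.872% of all genes tested, while the others lay within the SC range. The means were 1529 ± 120 under LW and 1645 ± 57.7 under SC (SD, n = 12 each), a log2 difference of -0.11 (standard error 0.04, adjusted p = 0.0545). The log2 difference lay between -0.20 and -0.13 at 2, 6, 14 and 18 h and was 0.00 at 10 h and 0.01 at 22 h. Slc16a8 passed the test under 8 of 39 alternatives, with adjusted p over all alternatives between 0.014 and 0.16. In 3 of the 8, a single eye was left out, namely LW 6 h eye 2 (-0.12), LW 14 h eye 2 (-0.13) or LW 22 h eye 1 (-0.12).

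Set against the melanin genes of the same eyes, the 2 epithelial genes were lower relative to Tyrp1 under LW at all 6 times. The ratio of Best1 to Tyrp1 had a median of 0.273% in LW eyes and 0.398% in SC eyes, and 10 LW eyes were below every SC eye. The ratio of Slc16a8 to Tyrp1 had a median of 15.5% in LW eyes and 19.3% in SC eyes, and 9 LW eyes were below every SC eye. A ratio to Tyrp1 with 9 or more LW eyes below every SC eye was found for 10.3% of all genes tested, so these counts also carry the difference of Tyrp1 itself. Relative to Pmel, Slc16a8 had a median of 19.4% in LW eyes and 22.3% in SC eyes, was lower under LW at all 6 times and had 8 LW eyes below every SC eye, as for 1.54% of genes. Relative to Dct, Slc16a8 had a median of 8.69% in LW eyes and 8.84% in SC eyes, with overlapping ranges. The ratio of Best1 to Dct had a median of 0.151% in LW eyes and 0.177% in SC eyes, and was lower under LW at 5 of 6 times, with 6 LW eyes below every SC eye, as for 0.384% of genes. Dct was itself lower under LW, which raises ratios to it there, and its spread between eyes also enters each ratio. Why this share is lower than the 2.73% for levels of genes was not tested. Both ratios of Best1 also carry its own log2 difference of -0.40. The Best1 ratios to Tyrp1 and to Dct thus had the same direction (log2 differences -0.63 and -0.32), while that of Slc16a8 to Dct was near 0 (-0.02, against -0.32 to Tyrp1), and the difference between the 2 groups of genes was not tested.

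Taken one time at a time, with 2 eyes against 2, Tyrp1 at 18 h was the only call among the 10 genes (log2 difference 0.27, adjusted p = 0.037). The LW eyes had 9116 and 10371 scaled counts of Tyrp1 at 18 h, against 7942 and 8173 in the SC eyes. Over all genes tested, 3.64%, 2.80%, 0.510%, 0.176%, 1.56% and 2.91% were called at the 6 times in order. The 18 h call was lost when any one of 7 eyes was left out, namely SC 2 h eye 1, SC 2 h eye 2, LW 10 h eye 1, LW 10 h eye 2, SC 18 h eye 1, SC 18 h eye 2 or LW 18 h eye 2, with log2 differences between 0.18 and 0.29. A variation of the season difference between times was called for 0 of the 10 genes, against 4.98% of all genes, with 0 at an unadjusted p under 0.05 and 0 by limma voom (lowest adjusted p 0.45, for Dct).

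The daily course was a second pattern. Averaged over both conditions, Slc45a2, Mitf, Tyr and Tyrp1 varied between the 6 times, which is 4 of 10 genes against 23.3% of all genes tested. None of Dct, Mlana, Best1 and Slc16a8 was called (all with an adjusted p above 0.4), while Pmel (adjusted p = 0.058) passed under 10 of 39 alternatives and Oca2 (adjusted p = 0.079) under 3. The single eyes whose omission brought Pmel past the threshold were SC 6 h eye 1, SC 6 h eye 2, LW 14 h eye 2, SC 18 h eye 2 and LW 18 h eye 2 (adjusted p between 0.018 and 0.048), and for Oca2 they were SC 2 h eye 1, SC 18 h eye 1 and SC 22 h eye 2 (adjusted p between 0.032 and 0.049).

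Slc45a2 had the largest daily range of the melanin genes, 1.56-fold between the mean at 2 h (702 scaled counts) and at 10 h (448; adjusted p = 3.2e-06, n = 4 eyes at each time). In LW eyes its means at the 6 times in order were 747, 702, 452, 506, 612 and 680. In SC eyes they were 656, 595, 444, 480, 574 and 689. The trough lay at 10 h, 1 of the 2 times with lights on under both conditions, and the variation was called within LW (adjusted p = 1.9e-04) and within SC (adjusted p = 0.0016), as for 19.0% and 10.7% of all genes. It was called under all 39 alternatives, averaged and within each condition.

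Tyr followed a similar course with a smaller range. Its means in the order of the times were 1622, 1586, 1247, 1314, 1596 and 1565 in LW eyes, and 1525, 1513, 1342, 1390, 1528 and 1579 in SC eyes (adjusted p = 0.0073 over both). For both Tyr and Slc45a2, all 12 eyes of 22, 2 and 6 h were above all 8 eyes of 10 and 14 h, which was true of 0.291% of all genes tested. The lowest Tyr value at 22, 2 or 6 h was 1473 and the highest at 10 or 14 h was 1442, while for Slc45a2 these values were 563 and 546. These times were grouped after the values had been seen. The variation of Tyr was called within LW (adjusted p = 0.018) and missed the threshold within SC (adjusted p = 0.41), and the difference between the conditions in this respect did not pass (adjusted p of the interaction 0.84). Without the eyes of 10 h the daily variation of Tyr was lost (adjusted p = 0.15), and without LW 10 h eye 1 or LW 10 h eye 2 the call within LW was lost (adjusted p = 0.066 and 0.091).

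Mitf did not follow the course of Tyr and Slc45a2. Its level was highest at 10 h (606 scaled counts) and lowest at 6 h (473), a 1.28-fold range over both conditions (adjusted p = 0.0016). These 2 times were picked from the values themselves, as the highest and the lowest mean. From the first time to the last, the means were 550, 457, 604, 522, 610 and 542 in LW eyes, against 455, 488, 608, 453, 572 and 515 in SC eyes. The level at 14 h was again low, so that 2 high times, 10 and 18 h, were separated by a lower one. The variation was called within LW (adjusted p = 0.034) and within SC (adjusted p = 0.018). The call within SC was lost without SC 10 h eye 2, an eye that held Alb (adjusted p = 0.079), and the call within LW was lost without LW 6 h eye 1, LW 6 h eye 2, LW 10 h eye 1, LW 10 h eye 2 or LW 18 h eye 2 (adjusted p between 0.058 and 0.14).

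Tyrp1 had a shallow daily course, 1.11-fold between 22 h (9629 scaled counts) and 14 h (8707), and its call was near the threshold (adjusted p = 0.045). It was lost under 25 of 39 alternatives, with adjusted p up to 0.11. Leaving out single eyes ended it for 17 of the 24, all but LW 6 h eye 2, SC 14 h eye 2, SC 18 h eye 2, LW 18 h eye 1, LW 18 h eye 2, SC 22 h eye 2 and LW 22 h eye 1 (adjusted p between 0.051 and 0.10). The season difference was 1.16-fold for Tyrp1, beside this daily range of 1.11-fold, and 1.07-fold for Slc45a2, beside one of 1.56-fold.

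**Figure D4:**
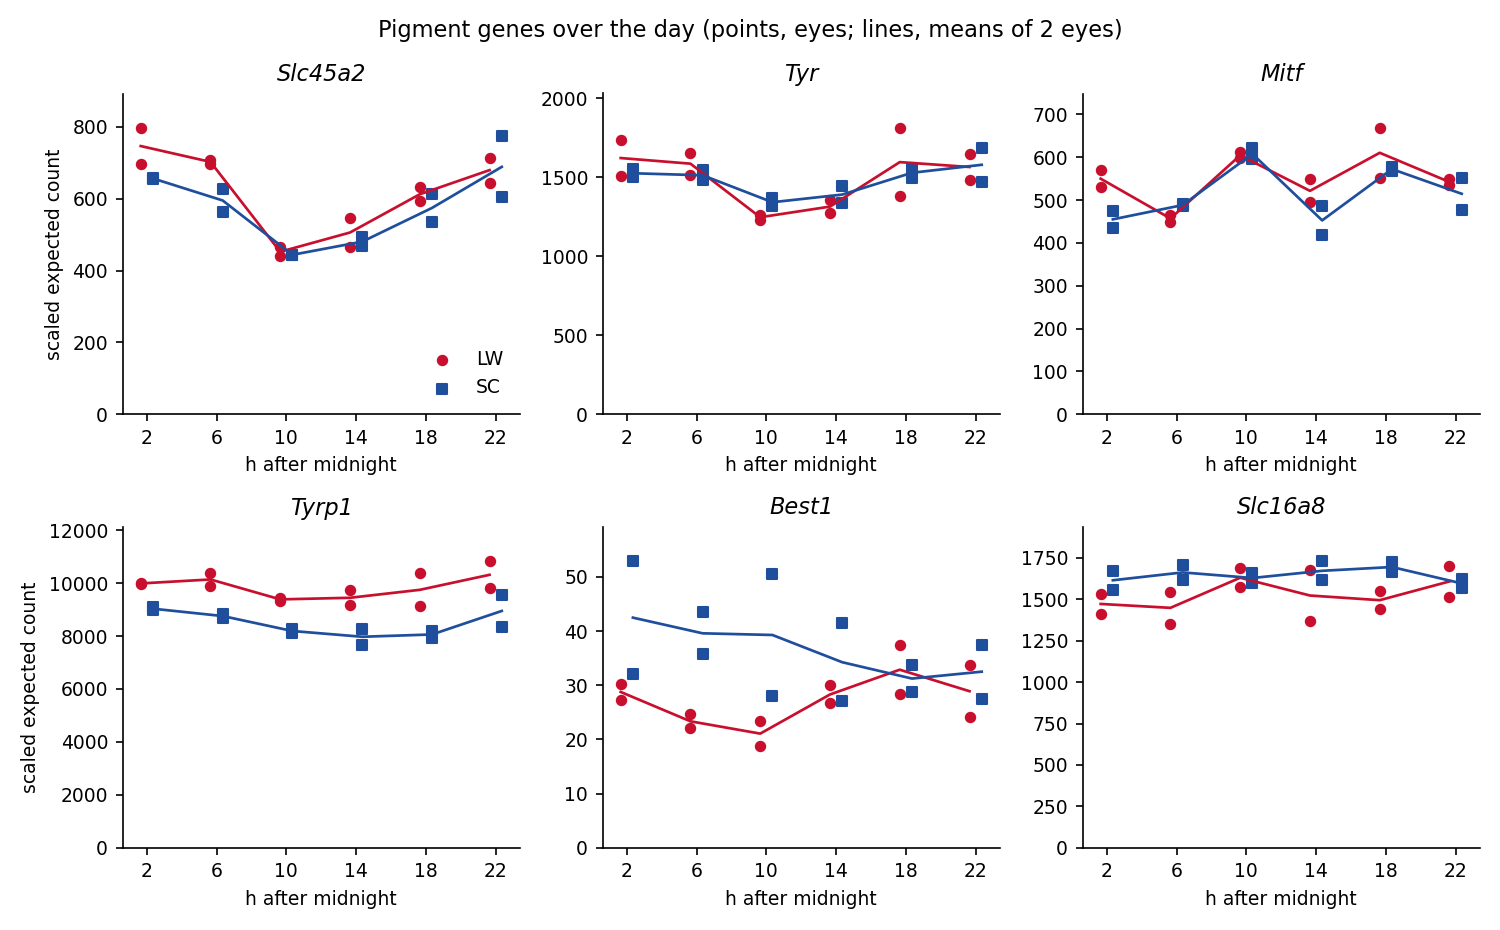
Scaled expected counts (vertical axis, from 0) of 6 pigment genes against h after midnight, with LW eyes as red circles, SC eyes as blue squares and lines through the means of 2 eyes. Slc45a2 and Tyr are lowest at 10 h under both conditions, Mitf is high at 10 and 18 h, and the Tyrp1 means of LW lie above those of SC at all 6 times.

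Among themselves, the genes did not move as a single block across the 24 eyes. These correlations on the log2 scale are descriptions, since the eyes share conditions, times and libraries. Tyr and Slc45a2 had a Pearson r of 0.81, Pmel and Slc45a2 0.75, and Tyrp1 and Pmel 0.72. Dct had an r of -0.13 with Tyrp1 and 0.22 with Tyr, and Mitf had an r between -0.43 and 0.26 with each of the other 7 melanin genes. Best1 and Slc16a8 had an r of 0.13 with each other. In the 2 eyes of a group, which share condition and time, Tyrp1 and Dct differed in the same direction in 11 of 12 pairs, as did Tyr and Tyrp1. Best1 and Slc16a8 did so in 4 of 12. With the melanin genes, Slc16a8 did so in 5 (Mitf and Mlana) to 12 pairs (Slc45a2), among them 11 for Pmel. Best1, at its low counts, did so with them in 3 (Dct and Pmel) to 7 pairs (Mitf and Mlana).

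Across 14044 other genes with a mean scaled count of at least 50, the levels most like those of Tyrp1 over the 24 eyes were those of Hpgds, a prostaglandin D synthase (r = 0.88), Cald1, which encodes caldesmon (0.84), Slc7a3, a transporter of basic amino acids (0.84), Bhlhb9 (0.83) and Doc2b, a calcium sensor of exocytosis (0.82). All 5 were higher under LW (log2 differences between 0.15 and 0.71). The levels most like those of Best1 were those of Flt3l (r = 0.69), Serpind1 (0.67), Scn4a (0.65), Ppfia4 (0.64) and Dzip1l (0.63). All 5 had lower means under LW, and Scn4a, a sodium channel of skeletal muscle, had a log2 difference of -0.28. The genes of both sets were picked by their likeness to Tyrp1 or Best1 over LW and SC eyes together. Their direction between the conditions thus follows in part from the pick and is no separate evidence. The summed level of 5 muscle markers lay between 24472 and 40016 in LW eyes and between 28701 and 44809 in SC eyes, and its part in the Scn4a difference was not tested.

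The related genes of 5 lists were mostly not called. Of 9 genes of the pigment cell lineage, 1 fell and 0 rose under LW, with a median log2 difference of 0.05, beside 4.65% of all genes lower and 4.84% higher. This was Sox10, a transcription factor of neural crest cells that activates Mitf and is also made by glia, with 366 ± 50.5 scaled counts in LW eyes and 405 ± 39.5 in SC eyes (SD, n = 12 each; log2 difference -0.15, adjusted p = 0.047). The Sox10 call was lost when any one of 19 eyes was left out, all but SC 10 h eye 2, LW 10 h eye 2, LW 14 h eye 2, LW 18 h eye 2 and LW 22 h eye 1 (adjusted p between 0.053 and 0.11). Kit, the stem cell factor receptor of melanocytes, had 1621 ± 156 in LW eyes and 1493 ± 210 in SC eyes (0.13, adjusted p = 0.073). The log2 differences of the other 7 ranged from -0.14 for Pax3 to 0.39 for Tfec, a relative of Mitf with only 12.7 scaled counts on average.

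Of 24 genes of melanosome formation, contents and transport, 1 was higher and 1 was lower under LW, beside 4.84% of all genes higher and 4.65% lower, with a median log2 difference of 0.00. Bloc1s6, a subunit of the BLOC-1 complex, which sorts cargo to melanosomes, had 825 ± 58.5 scaled counts in LW eyes and 764 ± 56.9 in SC eyes (log2 difference 0.11, adjusted p = 0.038). Gpnmb, a glycoprotein related to Pmel, had 9450 ± 496 in LW eyes and 10105 ± 443 in SC eyes (-0.10, adjusted p = 0.026). The Bloc1s6 call was lost in 18 of 39 settings and the Gpnmb call in 11. Single eyes whose omission ended the Gpnmb call (log2 difference between -0.09 and -0.08, adjusted p between 0.053 and 0.067) were SC 2 h eye 2, LW 2 h eye 2, SC 6 h eye 1, LW 6 h eye 1, SC 10 h eye 1, LW 10 h eye 1, SC 14 h eye 1, LW 14 h eye 1, SC 22 h eye 1 and LW 22 h eye 2. For Bloc1s6 (between 0.09 and 0.11, adjusted p between 0.055 and 0.080) they were 13 of the 24, all but SC 2 h eye 2, SC 6 h eye 2, LW 6 h eye 2, SC 10 h eye 1, LW 10 h eye 2, SC 14 h eye 1, LW 14 h eye 1, SC 18 h eye 1, LW 18 h eye 1, SC 22 h eye 1 and LW 22 h eye 1. Slc24a5, the ion exchanger of the same organelle, had a log2 difference of 0.06 (adjusted p = 0.20), and Trpm1, a channel of melanocytes that bipolar cells of the retina also make, had one of -0.03 (adjusted p = 0.46).

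Of 15 further genes of the pigment epithelium, 4 were lower and none was higher under LW, beside 4.65% of all genes lower, and the median log2 difference of the 15 was 0.01. Rpe65, the isomerase of the visual cycle, had 3612 ± 730 scaled counts in LW eyes and 4333 ± 503 in SC eyes (log2 difference -0.28, adjusted p = 8.5e-05). Stra6, the retinol uptake receptor, had 1825 ± 158 in LW eyes and 2110 ± 96.7 in SC eyes (-0.21, adjusted p = 0.0027). Ttr, which encodes transthyretin and is also made by the ciliary epithelium, had 12074 ± 503 in LW eyes and 13811 ± 780 in SC eyes (-0.19, adjusted p = 7.7e-05). Krt18, a keratin of simple epithelia, had 1302 ± 141 in LW eyes and 1428 ± 121 in SC eyes (-0.14, adjusted p = 0.0083). That call was lost when the 10 h eyes (adjusted p = 0.069) or the 14 h eyes (adjusted p = 0.075) were left out. Other genes of the list were not called, among them Rlbp1 (0.01), Rgr (-0.03), Lrat (-0.06) and Otx2 (0.03). The part of each level that the epithelium makes in the whole eye was not tested. Relative to Rpe65, the median of Slc16a8 was 39.0% in LW eyes and 36.9% in SC eyes and that of Best1 0.749% in LW eyes and 0.793% in SC eyes, with overlapping ranges.

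Slc16a8 works with the chaperone basigin, and of 11 genes of monocarboxylate transport 3 were lower and none was higher under LW, beside 4.65% of all genes lower and 4.84% higher, with a median log2 difference of -0.01. Bsg, the basigin gene, which is expressed in many cells of the eye, had 15739 ± 939 scaled counts in LW eyes and 17034 ± 976 in SC eyes (SD, n = 12 each; log2 difference -0.11, adjusted p = 0.0020), and was called under all 39 alternatives. Slc16a3, the transporter MCT4, had 1141 ± 469 in LW eyes and 1296 ± 373 in SC eyes (-0.23, adjusted p = 2.0e-04), but its call was lost without the eyes of 18 h (-0.10, adjusted p = 0.11). Slc16a11 had 979 ± 123 in LW eyes and 1108 ± 157 in SC eyes (-0.18, adjusted p = 0.0098), and its call was lost without the eyes of 2 h (-0.11, adjusted p = 0.18) or of 6 h (-0.13, adjusted p = 0.10). Slc16a1, the transporter MCT1 found on the apical side of the epithelium and on other cells, had 3635 ± 334 in LW eyes and 3392 ± 344 in SC eyes (0.10, adjusted p = 0.056). Emb, also of this list, had 674 ± 37.7 in LW eyes and 622 ± 50.9 in SC eyes (0.12, adjusted p = 0.051). Where only genes with a mean scaled count of at least 10 were tested, the list had 5 calls. The added calls were Emb and Slc16a1, both higher under LW. Without SC 6 h eye 2, LW 6 h eye 2, SC 14 h eye 2 or LW 18 h eye 1 the list had 5 calls. Of 7 chloride channel genes, 0 were called by limma and 0 by limma voom, and 1 had an unadjusted p under 0.05 (Ano1, a calcium-activated chloride channel, log2 difference 0.18, adjusted p = 0.076). Without SC 10 h eye 2 or SC 18 h eye 1, Ano1 was the 1 call of the list. Best2, a bestrophin of the ciliary epithelium, had a log2 difference of 0.04 (adjusted p = 0.78), and Best3 one of 0.05 (adjusted p = 0.65).

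**Figure D5:**
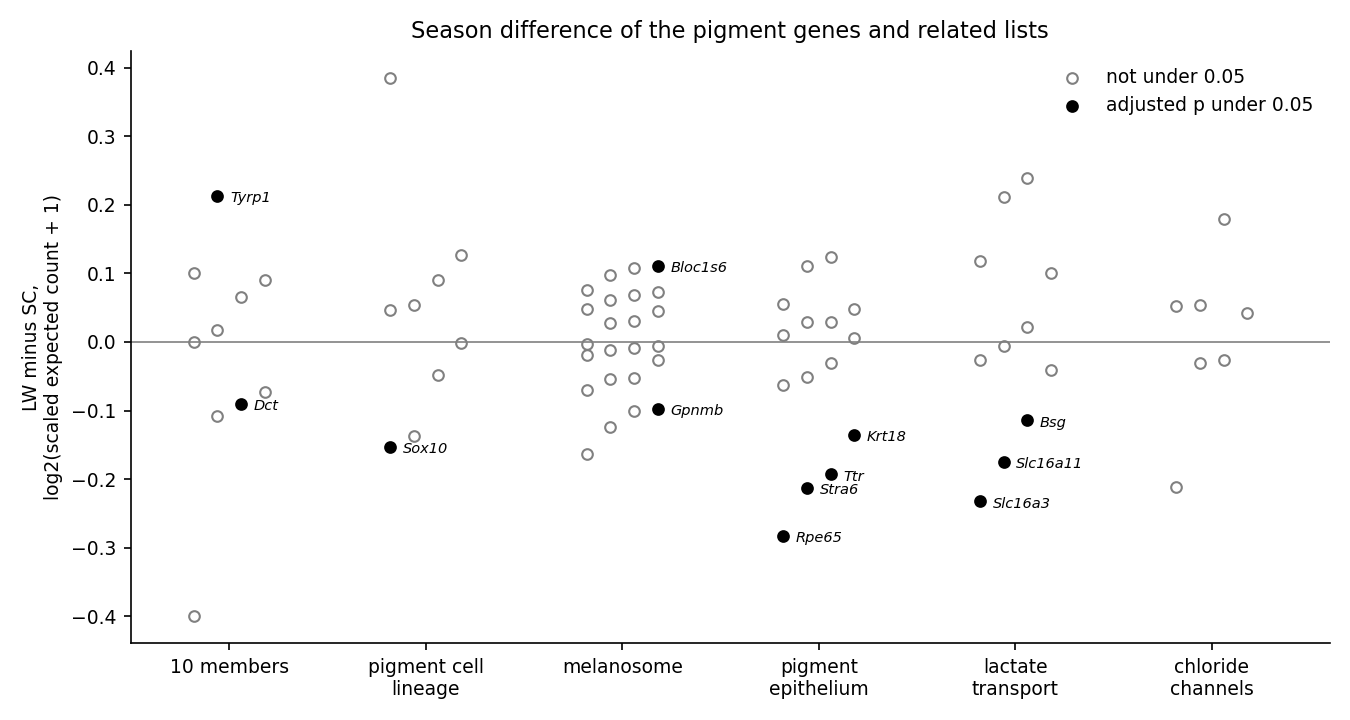
Log2 difference of LW minus SC over the 6 times (vertical axis) for the 10 pigment genes and the genes of 5 related lists, one point a gene, where filled points with a name are called. The 4 called genes of the pigment epithelium and the 3 of lactate transport are all lower under LW.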

How the data were processed

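The authors made strand-specific mRNA libraries, filtered reads with SOAPnuke, aligned them by HISAT2 and estimated gene counts by RSEM. The submitters' processing notes name HISAT2 2.0.4 and build GRCm38.p6, and the RSEM version is not given in the sources used here. The deposited table gives expected counts, with 43565 cells marked #N/A and no 0. Cells marked #N/A were read as 0, and no count model was run. Conditions and times came from the sample labels. TMM factors scaled each library to the mean size. Genes reaching 1 scaled count in 2 or more libraries (18233) entered limma 3.58.1 under R 4.3.3, with trend and robust variance, 12 group means and 12 residual degrees of freedom, so all groups share 1 estimate of spread. F tests covered time, and its interaction with condition. The fit was tested on simulated data. Gene positions are from RefSeq. All 10 genes, the called genes of 5 lists with up to 3 others of each, the 5 genes most like Tyrp1 and Best1, and Alb were to be named. The genes and lists were chosen with earlier results of these data known. Plots used matplotlib 3.10.9 (Python 3.11.15).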

Additional observations from a re-analysis of the deposited data

Results flagged for a closer look

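None of the 10 pigment genes had a season difference that varied between times. Among the 66 related genes, 7 did by the F test of the interaction in limma, beside 4.98% of all genes tested, and each rests on 2 eyes per condition and time. Slc16a3 (adjusted p = 5.1e-06) had log2 differences of -0.91 at 18 h and -0.70 at 6 h, the times when only LW was lit, and 0.34 at 2 h. Rpe65 (adjusted p = 0.0017) had -0.90 at 10 h and between -0.36 and 0.02 at the other times. Slc16a11 (adjusted p = 0.011) had -0.50 at 2 h and 0.27 at 18 h, and Slc16a6 (adjusted p = 0.012) had -0.50 at 2 h and 0.21 at 18 h. Mc1r, the melanocortin receptor of melanocytes (adjusted p = 0.024), had -0.66 at 6 h and 0.67 at 10 h. Myo5a, the motor that carries melanosomes (adjusted p = 0.023), had 0.28 at 6 h and -0.19 at 10 h. Lyst, which acts in the size of lysosome-related organelles (adjusted p = 0.028), had 0.26 at 6 h and -0.28 at 22 h. At the single times given, no difference of Mc1r, Myo5a or Lyst was called by limma (adjusted p between 0.055 and 0.34). Those of Slc16a11 and Slc16a6 at 18 h were not called either (adjusted p = 0.20 and 0.27).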

How the results depend on the processing

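The results were recomputed under 39 settings. The planned edgeR and DESeq2 fits were not run, since the table has cells without a number. Where an eye was left out, the lone eye of its group is assumed to vary like the other groups. The replicate numbers did not pair the eyes (the correlation of the deviations of 2 groups lay between -0.05 and 0.24, median 0.004, over 66 pairs of groups, 1 of them over 0.1). A fit with a replicate block called the same number of the 10 genes between LW and SC (2) and 3 with a daily variation in place of 4, Tyrp1 being lost (adjusted p = 0.053). It also called Kit in place of Sox10 (adjusted p = 0.0505) and gave 4 lactate transport calls in place of 3.

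Leaving out single eyes gave 1 to 3 of the 10 genes called between LW and SC, 0 to 2 calls at single times, 0 called for a variation of the difference between times, and 3 to 5 called for daily variation, with 1 to 3 within LW and 1 to 2 within SC. The lists then had 0 to 1 lineage, 0 to 2 melanosome, 4 to 5 epithelial, 3 to 5 lactate transport and 0 to 1 chloride channel calls. Without the 2 eyes with Alb, there were 2 calls at single times, 1 within SC, 5 in lactate transport and 1 among chloride channels. Calls at single times numbered 2 under total counts, TMM without the most abundant genes, a mean of at least 10, limma voom and without 6 h, and 0 without 2 h or 10 h. Without 2 h, 1 gene was called between LW and SC, with 0 lineage and 0 melanosome calls. Without 10 h, daily variation was called for 2 genes (1 within LW, 1 within SC). The melanosome list had 1 call under total counts and without 14 or 18 h, the lineage list 0 without 6 or 18 h, and the lactate list 5 with a mean of at least 10. The cause was not tested. Tyr, whose log2 difference is near 0, changed sign with median-of-ratios factors (-0.000514), total counts (-0.00351), TMM without the most abundant genes (-0.00199), limma voom (-0.000725) and without 2 h (-0.0169), 6 h (-0.0124) or 18 h (-0.00767), and lay between -0.0314 and 0.0334 without single eyes. Oca2 changed sign without 22 h (-0.00190) and lay between -0.00608 and 0.0407 without single eyes. The depth limits Best1, at 19 to 53 expected counts per eye.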
